A study of Mus musculus with 12 samples.

Results

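The genes of the cytosolic ribosome were followed in mouse CD8+ T cells expanded with or without dichloroacetate (DCA), an inhibitor of the pyruvate dehydrogenase kinases. The members were the genes whose symbol in the authors' deposited table starts with Rpl or Rps and a digit, with Rplp0, Rplp1, Rplp2 and Rpsa added and the S6 kinases and symbols marked -ps left out. This gave 90 genes of the 15067 in that table and of the 56748 in the count matrix. By their symbols, 46 encode proteins of the large subunit, 31 proteins of the small subunit and 11 are paralogs or retrogene copies (Rpl22l1, Rpl36al, Rpl39l, Rps27l, Rps4l, Rpl32l, Rpl6l, Rpl37rt, Rps27rt, Rps3a2 and Rps3a3). The remaining members, Rpl7l1 and Rps19bp1, are not subunits. Fau and Rack1 encode ribosomal proteins under other names and were not among the members. All 90 passed the filter on low counts, which asked for enough reads in as many libraries as 1 group holds.

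Splenocytes of 6 mice, 3 in each of 2 experiments, were stimulated for 24 h with peptide, expanded for 6 further days with IL-2 and sorted for CD8 on day 7, and bulk cDNA was amplified over 15 cycles. The groups were experiment 2 with 5 mM DCA, experiment 2 untreated, experiment 1 with 5 mM DCA and experiment 1 untreated, with 3 libraries each, and every mouse gave 1 DCA and 1 untreated library. The strain tags give Pmel-1 mice, whose transgenic receptor sees gp100, in experiment 2, and OT-1 mice, whose receptor sees SIINFEKL of ovalbumin, in experiment 1, while the titles name Pmel-1 in both. The peptides were 1 uM gp100 for pmel-1 cells and 250 nM SIINFEKL for OT-1 cells. All cells thus carry a transgenic receptor and were activated and grown in culture. Trbv14, the variable segment of the Pmel-1 receptor, had 1970 to 2880 CPM in experiment 2 and 0 CPM in experiment 1, and Trbv12-1, used by OT-1, had 0.0688 to 0.55 CPM in experiment 2 and 169 to 214 CPM in experiment 1, so the receptors follow the strain tags. The labels name 2 technical batches that run with the experiments, so strain, peptide, batch and experiment cannot be told apart.

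Each ribosome joins a small subunit, which reads the mRNA, to a large subunit, which makes the peptide bond. Its proteins are needed in near-equal amounts, and in vertebrates their mRNAs begin with a C followed by a run of pyrimidines, the 5′ terminal oligopyrimidine (TOP) motif, through which mTORC1 and Larp1 set how much they are translated. Activated CD8+ T cells make many ribosomes while they grow and divide. RNA levels, which were measured here, do not show translation.

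The total was 28039699 to 41051066 counts per library. The sort label was matched by the markers: 8 CD8 T cell genes summed to 7650 to 8220 CPM (DCA) and 9940 to 10200 CPM (untreated) in experiment 2, and to 6130 to 6680 CPM (DCA) and 5350 to 6280 CPM (untreated) in experiment 1, and Cd4 did not pass 0.638 CPM in any library. The 7 B cell genes were higher with DCA, at 33.4 to 38.9 CPM (DCA) and 24.4 to 27.1 CPM (untreated) in experiment 2, and at 27.4 to 38.2 CPM (DCA) and 12.7 to 18.3 CPM (untreated) in experiment 1. The 8 myeloid genes summed to 18.8 to 24.8 CPM (DCA) and 11.8 to 18.9 CPM (untreated) in experiment 2, and to 15.5 to 40 CPM (DCA) and 10 to 16.2 CPM (untreated) in experiment 1, with C1qa at 0 in all 4 groups. The 3 natural killer genes summed to 2.75 to 5.85 CPM (DCA) and 6.61 to 8.08 CPM (untreated) in experiment 2, and to 32.8 to 37.2 CPM (DCA) and 38.3 to 59.1 CPM (untreated) in experiment 1. The part of these traces in the results below was not tested. In bulk libraries, fewer cells of a type and less RNA per cell cannot be told apart.

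Of the 3 annotated starts of Rpl35a, which fell with DCA, 1 carries the pyrimidine run and is shown. The start of Rps27, which rose, carries it too, and so do those of Rpl38 and Rpl15, called lower, and of Rps27rt, a retrogene copy of Rps27. Rps12 and Rpsa, which rose, and Rpl27, which fell, are shown beside them because the run is not at their annotated start. Each line gives 15 bases before the annotated start and 15 from it, 5′ to 3′, from RefSeq promoters (build GRCm38.p6), with capitals for an uninterrupted run that begins with C at the start base and holds at least 5 pyrimidines.
Rps27 (chr3:90213634-90213663, minus strand): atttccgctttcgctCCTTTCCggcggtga
Rps27rt (chr9:114982725-114982754, minus strand): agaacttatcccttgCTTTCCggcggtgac
Rps12 (chr10:23787195-23787224, minus strand): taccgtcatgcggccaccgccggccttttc
Rpsa (chr9:120127751-120127780, plus strand): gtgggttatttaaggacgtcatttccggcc
Rpl35a (chr16:33056467-33056496, plus strand): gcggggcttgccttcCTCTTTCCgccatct
Rpl15 (chr14:18270972-18271001, minus strand): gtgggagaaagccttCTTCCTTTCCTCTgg
Rpl38 (chr11:114668565-114668594, plus strand): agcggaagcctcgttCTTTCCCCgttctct
Rpl27 (chr11:101442230-101442259, plus strand): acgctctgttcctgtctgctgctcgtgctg
Of the 90 members, 66 matched a promoter by symbol, with 77 promoters in all, and 15 of these 77 (19.5%) had such a run at the start, against 823 of all 32851 promoters (2.51%). The motif TATAAA, searched on the strand of the gene only and in a short window before the start, was in 1.3% of the members' promoters and 1.99% of all. Among genes with a promoter, the run was found in 2 of 11 called higher with DCA, in 3 of 13 called lower and in 10 of 42 not called. An annotated start a few bases off hides the motif, so a missing match says only that the letters are not at that base.

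Ribosomal protein mRNAs took a larger share of the counts with DCA in all 3 mice of experiment 2. The 90 genes held 6.58%, 6.42% and 6.70% of all counts in the DCA libraries of experiment 2, against 5.74%, 5.89% and 6.09% in the untreated ones. The groups did not overlap, and the DCA library was above the untreated one by 0.538 to 0.838 percentage points in each mouse. In experiment 1 the share was 7.97%, 7.53% and 7.84% with DCA, against 7.27%, 7.77% and 6.93% without. Here mouse 2 went the other way, and the paired differences of the 3 mice ran from -0.24 to 0.911 percentage points. The means were 6.57% ± 0.138 (DCA) and 5.91% ± 0.174 (untreated) in experiment 2 and 7.78% ± 0.228 (DCA) and 7.32% ± 0.42 (untreated) in experiment 1 (SD, n = 3 each). No test was run on these sums. A share is set against the library total alone, and the direction of the members with DCA rested on the scaling, as given below.

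The balance of large to small subunit genes differed more between experiments than between treatments. The summed counts of the 46 large subunit genes were 1.33 ± 0.00557 times those of the 31 small subunit genes with DCA and 1.33 ± 0.00862 times without in experiment 2 (SD, n = 3 each). In experiment 1 the ratio was 1.15 ± 0.00851 with DCA and 1.19 ± 0.0105 without, lower with DCA in each of the 3 mice by 0.03 to 0.057. These ratios do not depend on how the libraries are scaled.

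**Figure D1:**
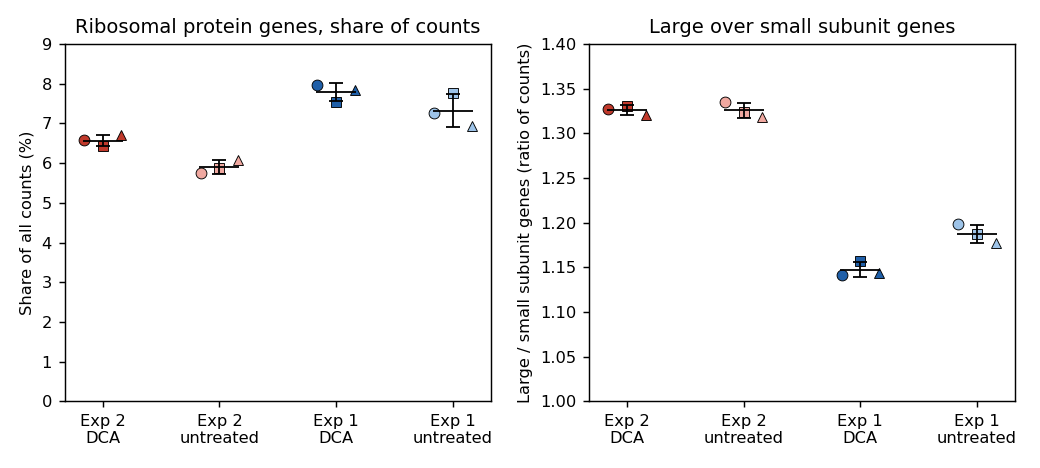
Left, the share of all counts (%) held by the 90 ribosomal protein genes, and right, the counts of the 46 large over those of the 31 small subunit genes, in each library. Circles, squares and triangles are mice 1, 2 and 3 of an experiment, lines are means and bars are SD (n = 3). The right axis starts at 1; all 6 experiment 2 libraries lie above all 6 of experiment 1 there, and below them at 5.74% to 6.70% on the left.

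Levels spanned more than 3 orders of magnitude per length, on the scale of TMM-scaled CPM per kb of the authors' deposited gene length, averaged over the 12 libraries. The 31 small subunit genes had a median of 544 CPM per kb and the 46 large subunit genes one of 321 CPM per kb. Highest stood Rpl38 at 2299.8 and Rplp0 at 1947 CPM per kb. Lowest stood Rpl39l at 0.739, Rpl24 at 0.912 and Rpl6l at 0.979 CPM per kb. Rpl38 is a large subunit protein known in mice for its part in translating Hox mRNAs, Rplp0 anchors the stalk that recruits elongation factors, and Rpl24 bridges the subunits.

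Rpl24, Rps10 and Rpl13a stood under 50 CPM, although a ribosome holds 1 copy of each of these proteins. Rpl24 averaged 0.939 TMM-scaled CPM, Rps10 averaged 5.14 TMM-scaled CPM, and Rpl13a was 24.4, 22.2 and 25.5 TMM-scaled CPM with DCA in experiment 2. Reads of near-identical copies can be lost or split in counting. Pseudogenes named after Rps10 held 208.8% of the CPM of Rps10 itself and the pseudogene of Rpl13a held 23.1% of its CPM, while the matrix holds no pseudogene named after Rpl24. The values of these 3 genes, and of the 11 copies, are therefore uncertain. Over all members, 309 named pseudogenes carried 1.86 (DCA) and 1.82 (untreated) reads per 100 member reads in experiment 2 and 0.645 (DCA) and 0.579 (untreated) in experiment 1.

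The first comparison asked what DCA does over both experiments, which the fit told apart by a term of their own. Single ribosomal protein genes rose and fell side by side, by small amounts. Of the 90 members, 13 rose and 17 fell (edgeR quasi-likelihood test, Benjamini-Hochberg adjusted p under 0.05), which is 14.4% and 18.9% of them, beside 7.01% higher and 9.8% lower among all 15688 genes tested (16.8% in either direction). The called members moved by 0.151 to 0.412 log2 units upward and by 0.175 to 0.397 downward. Among the 77 subunit genes, 11 rose and 14 fell. The median log2 fold change was -0.03 over the members and -0.02 over all genes tested, and -0.14 over the 1950 other genes of at least 100 CPM. Most members are abundant: of the 76 at that level 14.5% rose and 19.7% fell, beside 5.54% and 38.1% of those 1950 genes. In 9 of the 13 that rose and 13 of the 17 that fell, every mouse of the 6 went the same way. These members were called from the same libraries, so this describes the calls and adds no support to them. The share over all genes was not counted.

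How many rose and how many fell rested on the scaling of the libraries. TMM factors, which scale the libraries so that most genes keep their level, were themselves higher with DCA, at 1.17 (DCA) and 1.12 (untreated) in experiment 2 and 0.92 (DCA) and 0.834 (untreated) in experiment 1. With library totals alone 25 members were higher and 8 lower, beside 10.7% and 5.09% of all genes, and with cyclic loess, which also evens out trends with abundance, 38 were higher and 5 lower, beside 7.85% higher and 6.64% lower of all genes under cyclic loess. With a term for each mouse, 10 were higher and 13 lower, and Rplp1, Rps4x, Rps23, Rpl5, Rpl15, Rpl26 and Rpl38 were no longer called, at adjusted p of 0.0501 (Rpl5) to 0.0733 (Rps23). Leaving out 1 library at a time left 9 to 15 higher and 11 to 18 lower, with 11 lower without the DCA library of mouse 1 or 2 or the untreated one of mouse 2 of experiment 2. All 30 called members kept their sign under the 22 alternatives, and 11 stayed called in every one. Among them were Rps19, Rps12, Rps27, Rpsa, Rps27l and Rpl27a, which rose, and Rpl29, Rpl35a, Rpl36al and Rpl7l1, which fell.

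Rps19 rose most among the subunit genes called. It encodes a small subunit protein needed for maturing 18S rRNA and, in humans, is mutated in Diamond-Blackfan anaemia. Rps19 (ENSMUSG00000040952.17) had 2178, 2147 and 2313 TMM-scaled CPM with DCA, against 1442, 1456 and 1606 untreated, in experiment 2. In experiment 1 it had 3791, 3416 and 3541 with DCA, against 2874, 3159 and 2909 untreated. The DCA libraries were above the untreated ones in both experiments with no overlap. The log2 fold change was 0.41 ± 0.058 (SE) over both experiments, with an adjusted p of 0.000412. It was 0.56 in experiment 2 and 0.27 in experiment 1.

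Rps27 and Rps12, both small subunit proteins, rose by like amounts in each experiment. Both were called in experiment 1, and neither was called in experiment 2. Rps27 had 469, 482 and 484 TMM-scaled CPM with DCA, against 361, 387 and 416 untreated, in experiment 2. In experiment 1 Rps27 had 838, 718 and 720.3 with DCA, against 554, 679 and 564 untreated. Rps12 had 222, 219 and 222 with DCA, against 169.9, 179 and 189 untreated, in experiment 2. The DCA libraries were the higher ones throughout. In experiment 1 Rps12 had 429.6, 374 and 410.0 with DCA, against 309, 361 and 266 untreated. The log2 fold changes over both experiments were 0.32 ± 0.0616 for Rps27 (adjusted p = 0.00283) and 0.34 ± 0.0674 for Rps12 (adjusted p = 0.00356).

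Rpsa, the small subunit protein also known as the laminin receptor, had 1237, 1185 and 1212 TMM-scaled CPM with DCA, against 927, 943 and 984 untreated, in experiment 2. In experiment 1 Rpsa had 1141, 1003 and 1169 with DCA, against 1045, 1024 and 902 untreated, and there the groups overlapped. Over both experiments Rpsa rose by 0.25 ± 0.0555 log2 units (adjusted p = 0.00629). Rpl27a, of the large subunit, averaged 308 ± 7.7 CPM with DCA and 258 ± 17.7 untreated in experiment 2, and 301 ± 8.62 with DCA and 270.0 ± 17.1 untreated in experiment 1 (SD, n = 3 each), a log2 fold change of 0.21 (adjusted p = 0.0132). Rpl22, Rps4x, Rplp1, Rps23, Rpl13a and Rps27rt rose too, with log2 fold changes of 0.15 (Rps23) to 0.33 (Rps27rt). Rps4x lies on the X chromosome and Rps23 sits near the decoding centre.

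Rpl35a had the lowest adjusted p of the members that fell. It encodes a large subunit protein and, like RPS19, is mutated in some human cases of Diamond-Blackfan anaemia. Rpl35a (ENSMUSG00000060636.15) had 284, 269 and 293 TMM-scaled CPM with DCA, against 357, 387 and 342 untreated, in experiment 2. In experiment 1 Rpl35a had 926, 907 and 1013 with DCA, against 1212, 1402 and 1147 untreated. All DCA libraries lay below all untreated ones of the same experiment. The log2 fold change was -0.38 ± 0.0561 over both experiments (adjusted p = 0.000561), -0.36 in experiment 2 and -0.40 in experiment 1.

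Rpl29, a large subunit protein that mice can live without, had 273, 267 and 279.7 TMM-scaled CPM with DCA, against 312, 343 and 312 untreated, in experiment 2. In experiment 1 Rpl29 had 523, 497 and 573 with DCA, against 741, 753 and 652 untreated. It was lower in all 6 mice, by -0.33 ± 0.0581 on the log2 scale (adjusted p = 0.00164). Rpl7l1, which is related to Rpl7 and resembles the yeast assembly factor Rlp7, had 152, 154 and 162 TMM-scaled CPM with DCA, against 183, 190.2 and 172 untreated, in experiment 2. In experiment 1 Rpl7l1 had 289, 330.2 and 292 with DCA, against 403, 445 and 355 untreated. It too was lower in all 6 mice, with a log2 fold change of -0.31 (adjusted p = 0.00488), while Rpl7 itself was at 0.01 (adjusted p = 0.914).

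**Figure D2:**
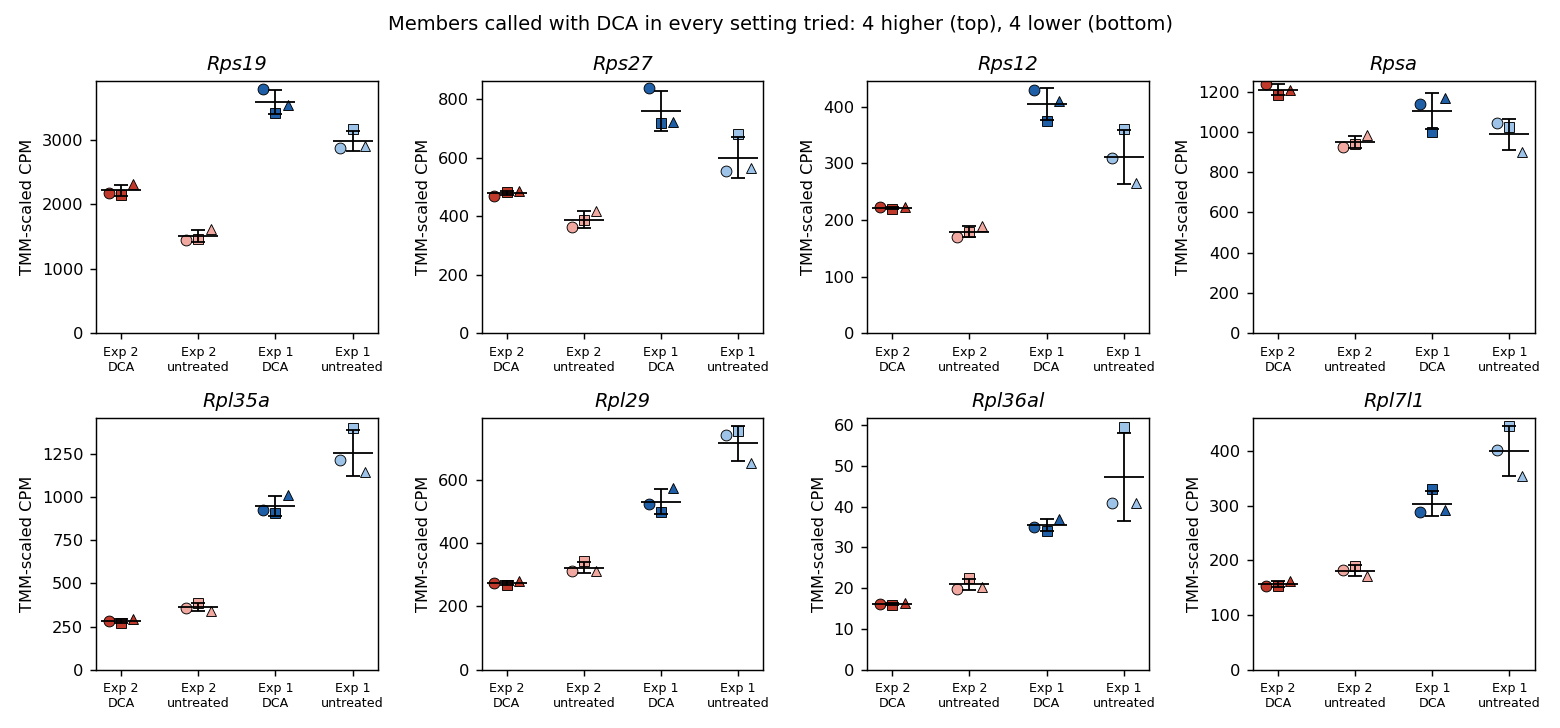
TMM-scaled CPM of 8 of the 11 members that were called over both experiments in every setting tried, in each library, with Rps19, Rps27, Rps12 and Rpsa (top) higher and Rpl35a, Rpl29, Rpl36al and Rpl7l1 (bottom) lower with DCA. Circles, squares and triangles are mice 1, 2 and 3 of an experiment, lines are means and bars SD (n = 3). The DCA libraries do not overlap the untreated ones of the same experiment, except for Rpsa in experiment 1.

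Rpl27 and Rpl31, both of the large subunit, fell by 0.30 and 0.29 on the log2 scale, with adjusted p of 0.00143 (Rpl27) and 0.00262 (Rpl31). Rpl27 averaged 504 ± 13.3 CPM with DCA and 607 ± 8.93 untreated in experiment 2. In experiment 1 Rpl27 averaged 736 ± 23.9 with DCA and 927 ± 102 untreated (SD, n = 3 each). Rpl31 averaged 293 ± 7.37 with DCA and 366 ± 13.5 untreated in experiment 2, and 753 ± 20.1 with DCA and 903 ± 112 untreated in experiment 1. Both were lower with DCA in all 6 mice, and neither was called under cyclic loess. Others that fell were Rpl37, Rps15, Rpl18, Rpl38, Rpl15, Rpl26, Rpl5, Rpl22l1 and Rpl36al. Rpl5 joins Rpl11 and 5S rRNA in the particle that binds Mdm2. Rpl5 fell by 0.17 on the log2 scale (adjusted p = 0.0228), and Rpl11 was at -0.07 (adjusted p = 0.416).

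The stalk proteins Rplp0, Rplp1 and Rplp2, which recruit the elongation factors, gave different calls. Rplp1 was at 0.16 (adjusted p = 0.0256), Rplp0 at 0.16 (adjusted p = 0.069) and Rplp2 at -0.04 (adjusted p = 0.697). Rplp0 was called in experiment 2, where it had 3521, 3277 and 3715 TMM-scaled CPM with DCA, against 2757, 2809.6 and 2851 untreated. Rps6, the substrate of the S6 kinases, had 675, 637 and 744 with DCA, against 621, 655 and 683 untreated, in experiment 2. In experiment 1 Rps6 had 1155, 1251 and 1306 with DCA, against 1456, 1595 and 1413 untreated, and was called lower there (log2 fold change -0.27, adjusted p = 0.0213) and not in experiment 2 (adjusted p = 0.691). The difference between its effects had an adjusted p of 0.148.

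In the authors' deposited table of DCA against untreated cells, 13 members had a false discovery rate under 0.05, 4 of them higher and 9 lower, and all 13 were among the 30 called here. Of all genes in that table, 10.5% were under the same rate. The members' log2 fold changes there differed from those here by at most 0.00524, but the p-values differed more. Rpl15 had p = 0.0825 in the authors' test and p = 0.00498 in the edgeR quasi-likelihood test used here. The tests are thus not alike, and their counts of calls cannot be compared.

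Within experiment 2, 8 members rose with DCA and 5 fell, or 8.89% and 5.56% of the 90, beside 2.37% higher and 2.2% lower of all genes tested (4.57% in either direction). Among those that rose were Rps19, Rplp0, Rps27l, Rpl4, Rpsa, Rpl13 and Rps23, and among those that fell were Rpl22l1, Rpl35a, Rpl31 and Rpl27. Of the 76 members of at least 100 CPM, 10.5% rose and 5.26% fell in experiment 2, beside 3.08% and 11.1% of the other genes at that level. The libraries of 26 members were all higher with DCA and those of 22 all lower, and 42 overlapped, beside 15.6% all higher and 14.6% all lower of all genes tested. With a term for each mouse, 6 were higher and 2 lower, since Rpl13, Rps23, Rpl35a, Rpl31 and Rpl27 were no longer called (adjusted p of 0.0502 to 0.0947). Under library totals 17 rose and 4 fell, beside 3.14% higher and 1.33% lower of all genes, and under cyclic loess 23 rose and 2 fell, beside 2.49% and 1.38%. Leaving out 1 library of experiment 2 gave 2 higher without untreated mouse 1 and 3 without untreated mouse 2 or any DCA library, 1 lower without untreated mouse 2 and 2 lower without DCA mouse 1 or 2, and without untreated mouse 2 of experiment 1 there were 8 lower.

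Within experiment 1, 5 members rose with DCA and 15 fell, or 5.56% and 16.7% of the 90, beside 5.67% higher and 11% lower of all genes tested. Rps19, Rps12, Rps27 and Rps15a were among those that rose, and Rpl29, Rpl35a, Rpl27, Rpl7l1, Rpl18, Rpl7a, Rpl37 and Rps7 led those that fell. Rpl18, a large subunit protein, had 1099, 978 and 1133 TMM-scaled CPM with DCA, against 1313, 1323 and 1265 untreated, with no overlap. The log2 fold change of Rpl18 was -0.28 ± 0.0598 (adjusted p = 0.00568). Rps19bp1, a nucleolar partner of Rps19, was at -0.36 (adjusted p = 0.022). Of the 76 members of at least 100 CPM, 6.58% rose and 18.4% fell in experiment 1, beside 5.33% and 38.3% of the other genes at that level. The libraries of 10 members were all higher with DCA and those of 22 all lower, beside 11.3% and 18% of all genes tested. With a term for each mouse, Rps15a, Rps15 and Rpl31 were no longer called (adjusted p of 0.0531 to 0.073). The split turned with the scaling: 19 rose and 3 fell under library totals, beside 9.45% and 5.23% of all genes, 25 rose and 1 fell under cyclic loess, beside 6.81% and 6.55%, and 6 rose and 2 fell when the 6 libraries of experiment 1 were fitted alone. Leaving out 1 library gave 1 higher without mouse 1, untreated or DCA, 2 without untreated mouse 3, and 8 without untreated mouse 2 or untreated mouse 1 of experiment 2. The number lower was 7 without untreated mouse 2 or DCA mouse 1, and 5 to 9 without any 1 library of experiment 2. Only Rpl29 stayed called in experiment 1 under all 23 alternatives, and Rps19 and Rpl22l1 were among those that did in experiment 2.

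Rps19 was called higher and Rpl35a, Rpl27 and Rpl31 lower in each experiment, and none was called in opposite directions. With a term for each mouse, Rpl31 was called in neither experiment, and Rpl35a (adjusted p = 0.0559) and Rpl27 (adjusted p = 0.0932) not in experiment 2. In 8 members all DCA libraries lay above, and in 13 below, the untreated ones of the same experiment, in both experiments, beside 4.42% and 6.63% of all genes tested. Across the 77 subunit genes the log2 fold changes of the experiments, which share no library, had a Spearman correlation of 0.712, and 55 of the 77 had the same sign. Over all 90 members the Spearman correlation was 0.599, and 64 had the same sign. The Pearson correlation was 0.626 over the 77 and 0.222 over the 90. No such value was computed over all genes tested. Genes are not independent replicates, and the estimates share the scaling, so this is a description.

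**Figure D3:**
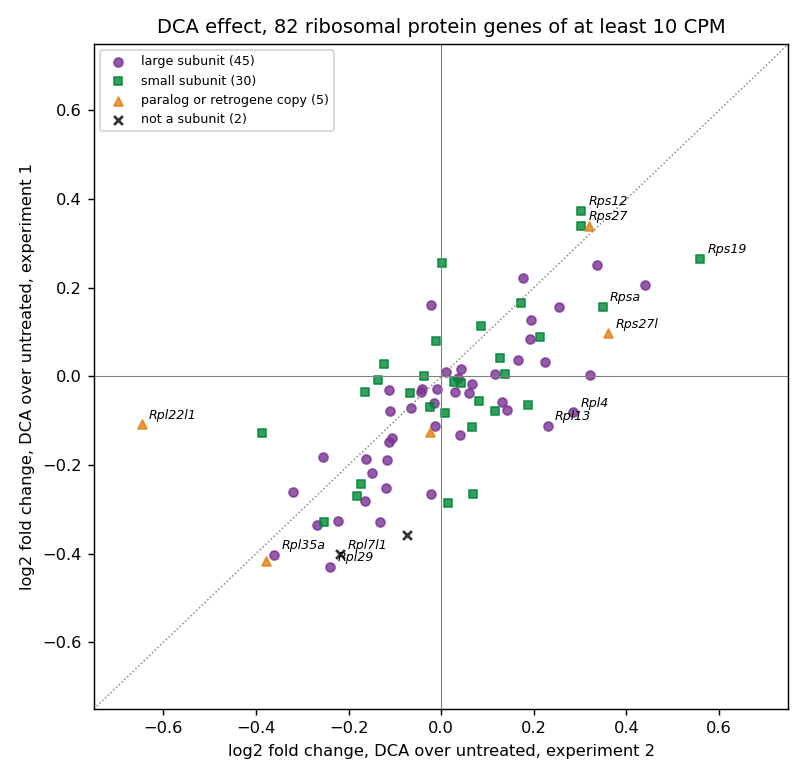
Log2 fold change of DCA over untreated cells in experiment 2 (x) and in experiment 1 (y) for the 82 members of at least 10 CPM, 1 point a gene, shaped by class; the dotted line marks equal effects. Most points follow the line, Rps19 at the upper right and Rpl35a and Rpl29 at the lower left, while Rpl22l1 lies far left and Rpl4 and Rpl13 lie right of 0 and below it.

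A test of the difference between the DCA effects, experiment 2 minus experiment 1, called none of the 90 members, beside 0.331% of all genes tested (0.28% higher and 0.051% lower). An unadjusted p under 0.05 was found for 17 of the 90 members, beside 2226 of all 15688 genes tested. DESeq2 called Rpl4, Rpl13 and Rpl22l1, limma-voom called Rpl4 and Rpl13, and edgeR without the filter called Rpl4 and Rpl22l1. Without untreated mouse 3 of experiment 1, edgeR called Rpl4, Rpl13 and Rplp0. Rpl4, a large subunit protein that lines the exit tunnel, had 2772, 2741 and 2999 TMM-scaled CPM with DCA, against 2258, 2319 and 2409 untreated, in experiment 2. In experiment 1 Rpl4 had 2990.3, 3092 and 3125 with DCA, against 3306, 3386 and 3041 untreated, and these groups overlapped. The difference was 0.37 ± 0.0772 log2 units (adjusted p = 0.0622).

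The paralog pairs gave ratios that do not depend on the scaling of the libraries. Rpl22 is needed in mice for the development of alpha-beta T cells, and its paralog Rpl22l1 is held down by Rpl22 in mouse cells. Rpl22l1 had 16.8, 17.5 and 18 reads per 100 reads of Rpl22 with DCA in experiment 2, against 31.4, 31.7 and 29.5 untreated. In experiment 1 it had 31.7, 32.4 and 31.5 with DCA, against 37.5, 41.2 and 41.4 untreated. The ratio was lower with DCA in all 6 mice and the groups did not overlap. Both genes entered it: Rpl22l1 had 38.8, 37.4 and 41.4 TMM-scaled CPM with DCA, against 60.8, 61.4 and 61.9 untreated, in experiment 2, and 108, 111 and 109 with DCA, against 104, 135 and 115 untreated, in experiment 1. Its log2 fold change was -0.65 ± 0.0933 in experiment 2 (adjusted p = 0.00202) and -0.11 ± 0.092 in experiment 1 (adjusted p = 0.475). Over both experiments Rpl22l1 was called at -0.38, a call lost under library totals, under cyclic loess and without untreated mouse 2 or any DCA library of experiment 2 (adjusted p up to 0.0871 over all alternatives). Rpl22 rose by 0.20 ± 0.0534 over both experiments (adjusted p = 0.0182).

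Rpl36al, a near-identical paralog of Rpl36a, had 8.04, 8.31 and 7.71 reads per 100 reads of Rpl36a with DCA in experiment 2, against 10.5, 11.3 and 10.3 untreated. In experiment 1 it had 10.8, 11 and 11.6 with DCA, against 14.4, 16.4 and 13.9 untreated. The DCA ratios were lower with no overlap in either experiment, and Rpl36al itself fell by 0.40 ± 0.0969 on the log2 scale (adjusted p = 0.0114). Rps27l, a p53-induced paralog of Rps27, had 141, 139.6 and 140.3 reads per 100 reads of Rps27 with DCA in experiment 2, against 141, 137 and 127 untreated. In experiment 1 Rps27l had 202, 231 and 237 with DCA, against 266, 259 and 264 untreated. The groups overlapped in experiment 2, and all DCA ratios were lower in experiment 1. Rps27l rose by 0.23 ± 0.0575 over both experiments (adjusted p = 0.0132), and its source gene rose too, as given above. Such copies share sequence with their source gene, so how reads were split between them is uncertain.

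**Figure D4:**
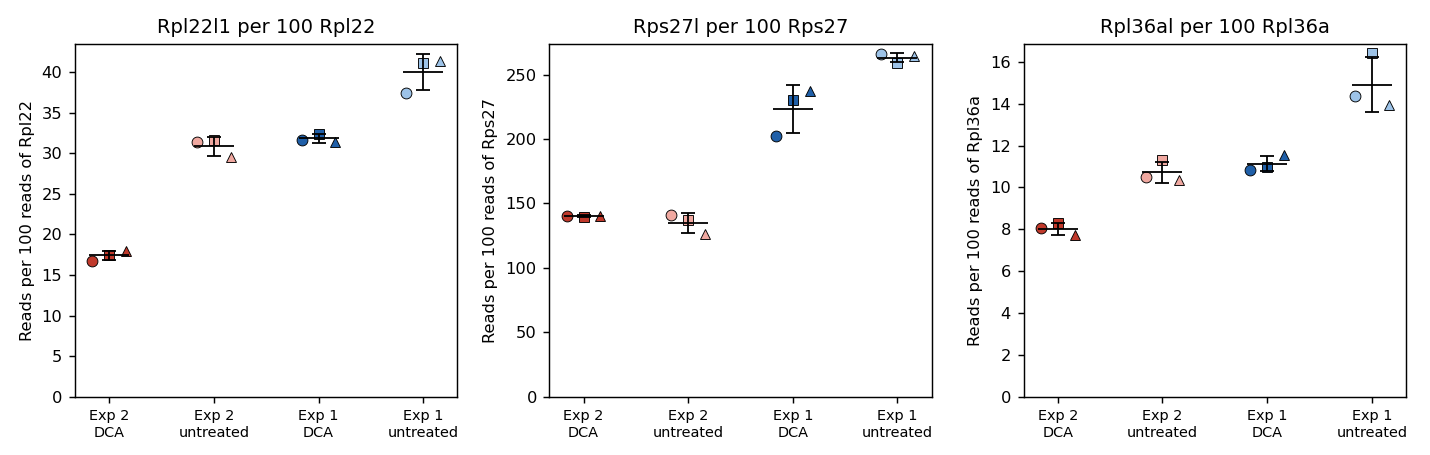
Reads of Rpl22l1, Rps27l and Rpl36al per 100 reads of Rpl22, Rps27 and Rpl36a in each library. Circles, squares and triangles are mice 1, 2 and 3 of an experiment, lines are means and bars SD (n = 3). Rpl22l1 stands at 17.4 ± 0.591 (DCA) and 30.9 ± 1.16 (untreated) in experiment 2 and at 31.9 ± 0.52 (DCA) and 40 ± 2.21 (untreated) in experiment 1.

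Other genes of ribosome making and use, which are not members, were counted from fixed lists. Of 17 tested chaperones and late assembly factors, 10 fell and none rose over both experiments, beside the 7.01% higher and 9.8% lower of all genes, and the list had a median log2 fold change of -0.31. In experiment 2 edgeR called none of the 17, beside 2.37% higher and 2.2% lower of all genes tested, and DESeq2 called 1 lower. In experiment 1 15 of the 17 fell and none rose, beside 5.67% higher and 11% lower of all genes tested. Of the 1950 genes of at least 100 CPM that are not members, 38.3% fell there. Most of the 17, such as Riok1 and Efl1, averaged below that level, so that share is no matched background for the list. Nob1, the nuclease that completes 18S rRNA, was at -0.82 in experiment 1 (adjusted p = 9.24e-05). Eif6, which keeps free large subunits apart, was at -0.67 there (adjusted p = 0.00076). Nob1 averaged 81 ± 3.12 CPM (DCA) and 87.5 ± 0.661 CPM (untreated) in experiment 2 and 61.5 ± 2.3 CPM (DCA) and 108 ± 8.22 CPM (untreated) in experiment 1 (SD, n = 3 each). The difference between its effects was itself called (log2 difference 0.71, adjusted p = 0.0168), but not with a term for each mouse or without any 1 library of experiment 2 or untreated mouse 1 or 2 of experiment 1 (adjusted p up to 0.154). Under library totals or cyclic loess, 6 of the 17 fell over both experiments. Of 13 RNA polymerase I genes none was called over both experiments, with DESeq2 calling 1 lower, although Polr1e was at -0.46 in experiment 1 (adjusted p = 0.0239), a call kept in 12 of 23 alternatives. Rack1, a ribosomal protein of the small subunit, fell by 0.21 on the log2 scale (adjusted p = 0.0276), a call lost with a term for each mouse and without untreated mouse 1 of experiment 1, among others.

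The counts of the lists below are over both experiments, where 7.01% of all genes tested rose and 9.8% fell. Of the 1950 genes of at least 100 CPM that are not members, 5.54% rose and 38.1% fell, and the lists hold genes above and below that level. Of 16 translation factors and other mRNAs with a TOP motif, 2 rose and 3 fell. Eef1a1, which brings tRNA to the ribosome, rose by 0.31 ± 0.0413 (adjusted p = 0.000337), and Pabpc1, the poly(A)-binding protein, by 0.36 ± 0.0571 (adjusted p = 0.000842). Eef1d, part of the exchange factor of Eef1a1, was at -0.40 ± 0.064 (adjusted p = 0.000904), and Eif3l at -0.29 (adjusted p = 0.0168), a call lost with a term for each mouse and under library totals or cyclic loess (adjusted p up to 0.112). Of 21 genes of mTORC1 and Larp1, 4 fell and none rose, with Rheb, the GTPase that activates mTORC1, at -0.37 (adjusted p = 0.000332) and Eif4e, the cap-binding factor, at -0.36 (adjusted p = 0.00349). Of 14 ribosome rescue and quality control genes, 2 rose and 4 fell. Map3k20, a kinase that senses stalled ribosomes, averaged 15.8 ± 0.831 CPM (DCA) and 2.19 ± 0.74 CPM (untreated) in experiment 2 and 4.3 ± 2.64 CPM (DCA) and 0.477 ± 0.334 CPM (untreated) in experiment 1, a log2 fold change of 2.97 ± 0.357 (adjusted p = 0.000185). Gtpbp2 rose by 0.36, while Ascc2 was at -0.46 and Edf1 at -0.25, the last not called under cyclic loess. Of the 4 genes of the Mdm2 and p53 list, Cdkn1a (0.82, adjusted p = 3.12e-05), Mdm2 (0.66, adjusted p = 0.000739) and Mdm4 (0.30, adjusted p = 0.0481) rose and none fell over both experiments. In experiment 1 alone, Trp53 was called lower (-0.355, adjusted p = 0.017), a call kept in 15 of 23 alternatives. Mdm4 was at 0.05 there and not called (adjusted p = 0.80). Eef1a1, Pabpc1, Eef1d, Eif6, Rheb, Eif4e, Map3k20, Gtpbp2, Ascc2, Cdkn1a and Mdm2 stayed called over both experiments in all 22 alternatives, and Mdm4 in 12.

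The second question was how the same genes stood in experiment 2 against experiment 1, where strain, peptide and batch differ together. With TMM scaling most members were lower in experiment 2, but this direction was not kept under cyclic loess. In untreated cells 4 members were higher and 72 lower in experiment 2, or 4.44% and 80% of the 90, beside 26.7% higher and 25.2% lower of all genes tested (51.8% in either direction). In DCA cells 7 were higher and 72 lower, or 7.78% and 80%, beside 28.1% higher and 24.1% lower of all genes tested (52.3% in either direction). The members' median log2 fold change was -0.68 in untreated and -0.65 in DCA cells, against 0.11 over all genes in both, and -0.66 and -0.53 over the 1950 other genes of at least 100 CPM. Of the 76 members at that level, 2.63% were higher and 86.8% lower in untreated cells, beside 19.5% and 67.1% of those 1950 genes, and 5.26% higher and 84.2% lower in DCA cells, beside 22.9% and 61.9%. With library totals alone, 15 members were higher and 51 lower in untreated cells, beside 41.7% and 15.2% of all genes, where the median of all genes was 0.53. With cyclic loess the medians of the members were 0.001 in untreated and -0.03 in DCA cells, with 36 higher and 33 lower in untreated cells, beside 25.2% and 26.7% of all genes, and 35 higher and 36 lower in DCA cells, beside 26.2% and 27%. The share of counts, which amounts to scaling by library totals alone, was lower in experiment 2, as given above. Member calls thus lay mostly on the lower side under TMM scaling and library totals, and about evenly on both sides under cyclic loess.

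Of the 76 members called in untreated cells, 33 stayed called in all alternatives, with 4 higher and 29 lower. Rps25, a small subunit protein used by viral internal ribosome entry sites, was at the low end in both arms. It had 525, 547 and 578 TMM-scaled CPM with DCA in experiment 2, against 2565, 2422 and 2528 with DCA in experiment 1. Untreated, it had 562, 612 and 622 in experiment 2, against 2259.7, 2744 and 2368 in experiment 1. The log2 fold change of experiment 2 over 1 was -2.19 ± 0.0745 (adjusted p = 1.96e-11) in DCA cells and -2.04 ± 0.0741 (adjusted p = 3.27e-11) in untreated cells. Rps16, Rpl23, Rpl34, Rpl35a and Rps27l were among the others with the lowest adjusted p in untreated cells, with log2 fold changes of -1.79 (Rpl35a) to -1.24 (Rps16).

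Rps2, a small subunit protein at the mRNA entry channel, stood at the other end. It had 1942, 1846 and 1924 TMM-scaled CPM with DCA in experiment 2, against 937, 919 and 928 with DCA in experiment 1. Untreated, it had 1702, 1659.8 and 1827 in experiment 2, against 983, 937 and 854 in experiment 1. The experiments did not overlap, and the log2 fold change was 1.04 ± 0.0601 in DCA and 0.90 ± 0.06 in untreated cells. The retrogene copies Rps27rt and Rpl37rt were higher too, at 1.69 and 0.54 in untreated cells, and so was Rpl7 at 0.21. Rps27rt had 7.93, 8.11 and 8.53 reads per 100 reads of Rps27 with DCA in experiment 2, against 1.59, 1.69 and 1.62 with DCA in experiment 1, while Rps27 itself was at -0.66. In DCA cells Rpl13, Rpl3 and Rps4l were called higher as well, Rpl13 and Rpl3 at 0.36 and 0.17, and Rps4l rested on 3.14, 2.24 and 2.52 CPM in experiment 2, against 0.42, 0.215 and 0.0389 in experiment 1. The calls of Rpl13 and Rpl3 turned round when a trend with GC content was removed.

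Across the 77 subunit genes the differences between experiments were alike in DCA and untreated cells, with a Spearman correlation of 0.959 and the same sign in 72, although the arms share no library; they come from the same mice. Log2 fold changes between experiments ran with GC content over all genes (Spearman 0.375 in DCA and 0.368 in untreated cells over 11868 genes with a GC value) and less over the 77 subunit genes (0.109 and 0.0638). With a GC trend removed, 3 members instead of 7 were called higher in DCA cells, and Rpl13 and Rpl3 turned round. The other counts of members called between the experiments stayed within 1.5 times. The part of GC content in the members' differences was not tested beyond these values.

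**Figure D5:**
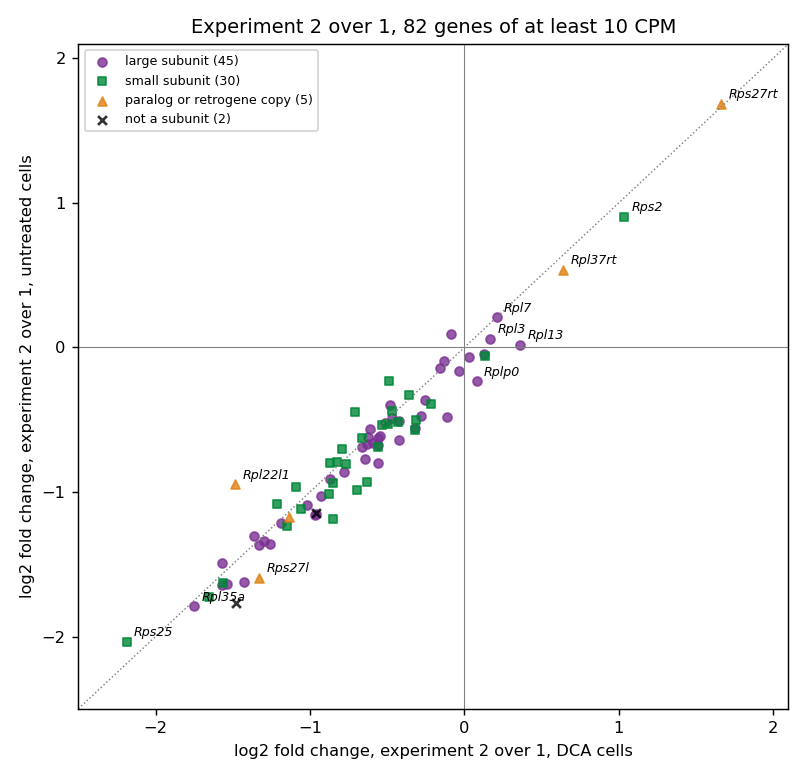
Log2 fold change of experiment 2 over experiment 1 in DCA cells (x) and in untreated cells (y) for the 82 members of at least 10 CPM, with TMM scaling, 1 point a gene, shaped by class; the dotted line marks equal values. Points run along the line from Rps25 at the lower left to Rps2 and Rps27rt at the upper right, and most lie below 0 on both axes, which cyclic loess scaling does not keep.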

How the data were processed

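Raw gene-level read counts of 12 libraries, whole numbers with no normalization, were deposited by the authors. The submitters' processing notes name fastp (version 0.23.2), STAR (version 2.7.10a), edgeR (version 3.36.0) and the GRCm39 build. Which read counter, annotation release and strand setting were used is not given in the sources used here. Reads of overlapping genes therefore cannot be told apart. A second deposited file holds the authors' test of DCA, with log2 fold changes, log2 CPM, p-values and a gene length, per the file headers. Symbols came from that file for 15067 genes and from a reference gene list for 37502, and its lengths gave CPM per kb.

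The quasi-likelihood test of edgeR 4.0.16 (R 4.3.3) was run on the deposited counts with TMM factors and filterByExpr by the 4 groups, and p-values were Benjamini-Hochberg adjusted over 15688 genes with a threshold of 0.05. DCA over both experiments was fitted beside a coefficient for experiment. The other contrasts came from a fit of 4 group means, so the groups share an estimate of the spread. The SE was the absolute log2 fold change over the root of F. The fit was tried on simulated counts for the DCA effects over both and in each experiment, with as many genes raised as lowered. Such balanced counts do not test the scaling of the real libraries, and the other contrasts were not simulated. Libraries held 28039699 to 41051066 counts without molecular identifiers, and no pair within a group matched within sampling noise (chi-square per degree of freedom of 10.8 to 29.8).

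Each mouse gave a DCA and an untreated library, so libraries are paired by design. Deviations from group means correlated at 0.0443 to 0.0834 for libraries of the same mouse (6 pairs) and at -0.0689 to -0.00438 for different mice (12 pairs).

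Members named were the stalk genes, Rpsa, paralog pairs, Rpl5, Rpl11, Rps6 and Rps19, up to 8 called members per direction and comparison by adjusted p, the 3 highest and 3 lowest per length, the extremes of each comparison, members that are no subunit, and up to 2 called genes per direction of each related list. Others were named after their values were seen, and some genes that this rule takes are not reported here. The members, lists and markers were chosen with earlier results of these data known. Alternatives were RLE size factors, library totals, TMM without the members, cyclic loess (limma 3.58.1), limma-voom, DESeq2 (version 1.42.0), testing without a low-count filter, a term for each mouse, each experiment alone and each library left out. Adding pseudogene reads to their gene and removing a GC trend were chosen after seeing the data.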

Additional observations from a re-analysis of the deposited data

Results flagged for a closer look

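Rpl13, a large subunit protein, had log2 fold changes of opposite sign in the 2 experiments. It had 2219.8, 2192 and 2281 TMM-scaled CPM with DCA, against 1801, 1889 and 2016 untreated, in experiment 2, where all DCA libraries were the higher ones. In experiment 1 Rpl13 had 1729.5, 1747 and 1736 with DCA, against 1926, 1889.6 and 1816 untreated, and all DCA libraries were the lower ones. The difference of the log2 fold changes, experiment 2 minus experiment 1, was 0.341 ± 0.0725 (SE), and its adjusted p of 0.0629 (edgeR) missed the threshold. It passed with limma-voom (adjusted p = 0.0292), with DESeq2 (adjusted p = 0.0217) and without untreated mouse 3 of experiment 1 (adjusted p = 0.0332). Nob1, which is not a member, had a difference of 0.706 log2 units (adjusted p = 0.0168, edgeR), which passed the threshold in 13 of 22 alternatives too.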

How the results depend on the processing

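The members' calls depended on the scaling, and the cause was not tested. Over both experiments 13 members rose and 17 fell with DCA, against 25 and 8 under library totals alone, 38 and 5 under cyclic loess, 8 rising without the filter on low counts, and 27 falling with a GC trend removed. In experiment 1, 5 rose and 15 fell, against 19 and 3 under library totals, 25 and 1 under cyclic loess, 3 rising without the filter, 3 rising with the GC trend removed, and 2 falling when experiment 1 was fitted alone. In experiment 2, 8 rose and 5 fell, against 17 rising under library totals, 23 and 2 under cyclic loess, 4 and 20 with the GC trend removed, 13 and 9 when experiment 2 was fitted alone and 11 falling with DESeq2. For experiment 2 over 1, untreated cells had 4 higher and 72 lower, against 15 higher under library totals and 36 and 33 under cyclic loess. DCA cells had 7 higher and 72 lower, against 16 higher under library totals, 35 and 36 under cyclic loess and 3 higher with the GC trend removed. That removal reversed the log2 fold change of experiment 2 over 1 in DCA cells for Rpl13 (-0.37, adjusted p = 0.000132) and Rpl3 (-0.16, adjusted p = 0.0341).

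For the difference of the DCA effects, no member was called, against 2 higher with limma-voom, 2 higher and 1 lower with DESeq2, and 1 higher and 1 lower without the filter. With the replicate block, a term for each mouse, 10 rose and 13 fell over both experiments, 4 and 13 in experiment 1, 6 and 2 in experiment 2, and none was called for the difference. No such fit can be made for experiment 2 over 1, since no mouse is in both. With 1 library left out at a time, the counts higher and lower were 9 to 15 and 11 to 18 over both experiments, 1 to 8 and 5 to 20 in experiment 1, 2 to 12 and 1 to 8 in experiment 2, 0 to 3 and 0 to 0 for the difference, 5 to 7 and 71 to 74 for experiment 2 over 1 in DCA cells and 4 to 6 and 68 to 72 in untreated cells.

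Without a library, the share of counts was 6.5% to 6.64% (DCA) and 5.81% to 5.99% (untreated) in experiment 2 and 7.68% to 7.91% (DCA) and 7.1% to 7.52% (untreated) in experiment 1. Without mitochondrially encoded genes in the total, it was 6.72% for DCA libraries of experiment 2. Of the 10 highest members per length, 3 were among the 10 highest in CPM. RLE factors, TMM without the members and added pseudogene reads left each count within 1.5 times.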
